A study of Mus musculus with 12 samples.

Results

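The Slc25 genes encode the mitochondrial carrier family, and their transcripts were followed here through mouse 2-cell embryos in which Eif1ad3 was knocked down and through RNA recovered with His-tagged Eif1ad3. Members were taken by name, as every listed gene whose symbol is Slc25a followed by a number, with Slc25a31 left out. This gave 42 genes of the 20244 listed in the 2 tables, of which 40 were in both, and Slc25a29 and Slc25a45 were in the immunoprecipitation table alone. In the knockdown experiment, 2 control libraries labelled WT and 2 libraries labelled Eif1ad3_KD were made at the 2-cell stage. The labels describe the reagents in differing ways. The design text has 1-cell CF1 embryos given RfxCas13d mRNA (an RNA-cutting enzyme) alone or with guide RNA, and the samples' protocol has oocytes given control or antisense morpholinos together with Cas13d protein. In the immunoprecipitation experiment, mRNA for 6xHis-tagged Eif1ad3 was injected into zygotes (200 ng/uL). Lysates, from 200 cells for each replicate, met beads with an anti-His antibody (His, 2 libraries) or with negative control IgG (2 libraries). All 4 of these libraries carry the genotype label Eif1ad3_OE, although the design text also mentions control cells, and the level of the tagged protein is not given in the sources used here. The replicates are lettered A and B in each group, and nothing says that they came from separate embryo pools, so p-values measure only the spread between these libraries.

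Mitochondrial carriers are small proteins, built from repeats of a common module, that sit in the inner mitochondrial membrane and exchange nucleotides, phosphate, amino acids, carboxylic acids and cofactors between the matrix and the cytosol. They are encoded in the nucleus, made without a cleaved presequence in most cases, and inserted by the TIM22 complex after passing the TOM channel and the small Tim chaperones. Oocytes hold a large maternal store of mitochondria, and early cleavage embryos rely on pyruvate oxidation, which draws on ADP/ATP exchange and phosphate import.

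Depth was recovered from the values, since each was a whole number of reads scaled to the library total (CPM, reads of a gene per 1000000 reads). The libraries held 18173916 to 27902514 reads for the knockdown experiment and 4678563 to 8364126 reads in the immunoprecipitation experiment, and 3 reads corresponded to at most 0.165 and 0.641 CPM. Eif1ad3 itself was at 839 and 663 CPM in control A and B and at 277 and 377 CPM in knockdown A and B. In the separately normalized immunoprecipitation table it was at 80.3 and 83.6 CPM in His A and B and at 1.35 and 30.8 CPM in IgG A and B. All 6 markers of the 2-cell embryo were detected in the control and knockdown libraries (summed 8816 to 12370 CPM). The 3 listed of 7 cumulus and granulosa markers summed to at most 12.6 CPM there. The summed oocyte markers (Zp3, Gdf9, Bmp15, Zar1 and Nlrp5) stood apart in knockdown A, at 3688 CPM against 1279 to 1503 CPM in the other 3 libraries. In the immunoprecipitation experiment the 2-cell markers summed to 4448 and 4646 CPM with anti-His beads and to 938 and 1114 CPM with IgG, where Tdpoz4 was at 0 in both libraries and Zfp352 and Obox3 in IgG A. The oocyte markers summed to 5667 and 5858 CPM in His and to 2426 and 3628 CPM in IgG. The 2 listed of 3 sperm markers summed to 1.08 and 7.20 CPM in His and to 47.4 and 54.3 CPM in IgG, with Prm1 at 0 in all 4. The 3 trophectoderm markers summed to 53.8 and 23.1 CPM in His A and B and to 0 and 0.64 CPM in IgG A and B. The 5 listed of 7 cumulus and granulosa markers summed to 0.72 and 7.58 CPM in His and to 0 CPM in both IgG libraries. At least 1 CPM was reached by 12246 and 12270 genes in His and by 5148 and 5564 genes in IgG.

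In control embryos 37 and 38 of the 40 listed members reached 1 CPM, and 21 and 20 reached 10 CPM. The summed level of the family was 1348 and 1384 CPM. CPM values are not scaled by transcript length, so levels are compared here within a gene and not between genes. Every role group had a detected member. Among the ADP/ATP and phosphate carriers, Slc25a3, which imports phosphate, was at 125 and 122 CPM, and Slc25a5, the ADP/ATP exchanger also called ANT2, was at 178 and 142 CPM. Among the amino acid carriers, Slc25a44, which carries branched-chain amino acids, was at 187 and 214 CPM, and Slc25a15, the ornithine carrier, at 98.0 and 90.5 CPM. Low members included Slc25a27, a neuronal relative of the uncoupling proteins, at 0 and 0.683 CPM.

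**Figure D1:**
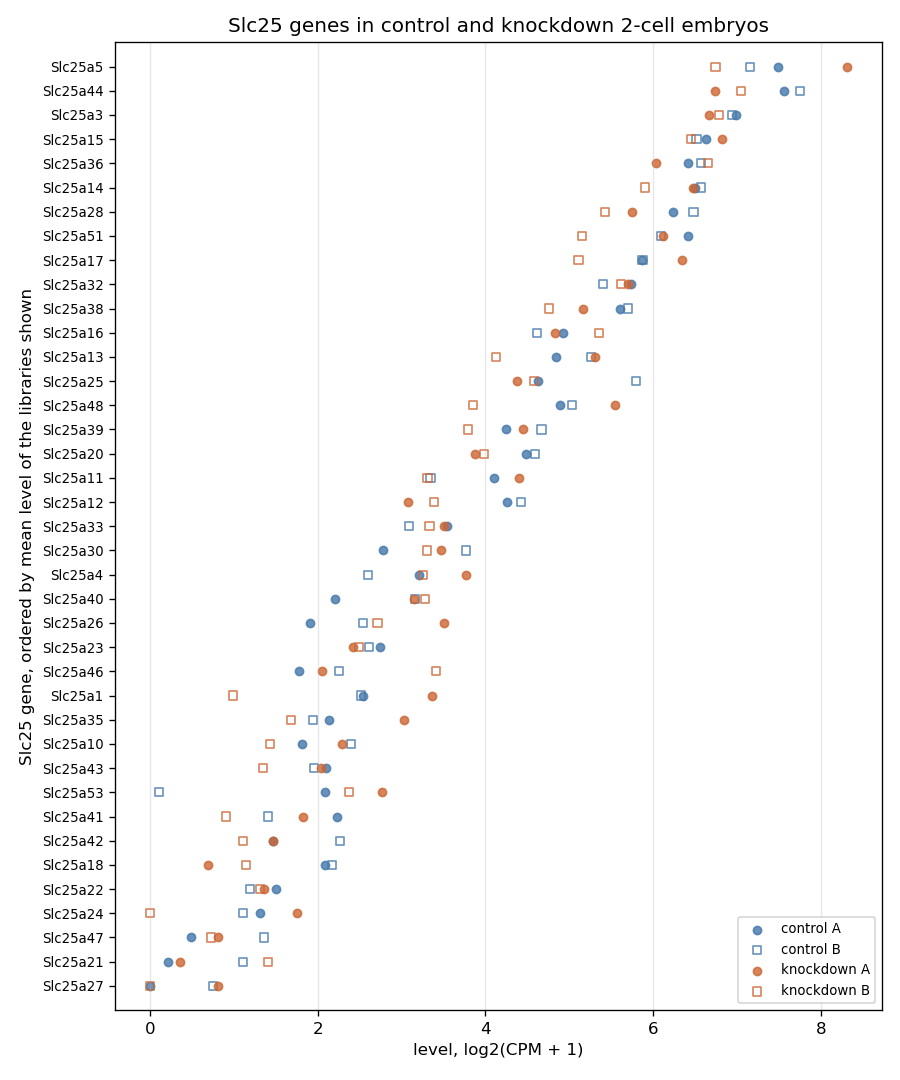
Levels of 39 of the 40 listed Slc25 genes in the 2 control and 2 knockdown libraries, as log2(CPM + 1); 1 row is a gene and 1 point a library, and rows are ordered by mean level for display only. Slc25a44, Slc25a28 and Slc25a12 have both knockdown points to the left of both control points, and Slc25a5 has its control points between the 2 knockdown points.

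The first comparison asked how carrier transcripts stood in embryos with less Eif1ad3. No Slc25 gene passed the test, but more of them lay on the lower side than on the higher side. Of the 38 members tested, 11 were lower in both knockdown libraries than in both controls (28.9%, against 18.4% of all 13332 genes tested), 3 were higher in both (7.9%, against 18.1% of all genes), and 24 overlapped. The lower group held carriers of amino acids (Slc25a44, Slc25a12, Slc25a38, Slc25a18), of acylcarnitine (Slc25a20), of iron (Slc25a28), of phosphate and ATP-Mg (Slc25a3, Slc25a23, Slc25a25) and of coenzyme A (Slc25a42), and the uncoupling-protein relative Slc25a14. The higher group was Slc25a4, Slc25a26 and Slc25a53. The median difference over the 38 members was -0.24 on the log2(CPM + 1) scale, where that over all genes was 0.02. It was nearer to 0 with a pseudocount of 5 (-0.13), in edgeR (-0.07, all genes 0.09) and in DESeq2 (-0.07, all genes 0.09). With limma, 24 members (63.2%) were below 0 against 48.7% of all genes. In limma, 0 members were called at an adjusted p of 0.05 (0% of all genes tested were called), 0 had an unadjusted p under 0.05, and the smallest adjusted p was 0.859. The reads-based tests of edgeR and DESeq2 also called 0 members, with 1 unadjusted p under 0.05 in each. These are whole embryos, so fewer contributing cells and less RNA per cell cannot be told apart.

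The lower side rested mostly on knockdown B. Relative to the control mean, the median member stood at 0.04 in knockdown A (0.14 for all genes) and at -0.60 in knockdown B (-0.17 for all genes). In knockdown B, 26 of 38 members (68.4%) were below both controls, against 46.7% of all genes. In knockdown A, 12 (31.6%) were below both controls, against 30.0% of all genes. The summed level of the family was 1402 CPM in knockdown A and 993 CPM in knockdown B. Knockdown A also carried the raised oocyte markers, and summed trophectoderm markers of 33.6 CPM against 8.20 to 13.5 CPM elsewhere, and the part of either in these differences was not tested.

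Among the amino acid and acylcarnitine carriers, 7 of 8 had a difference below 0 (87.5%, against 48.7% of all genes), 5 were lower in both knockdown libraries (62.5%, against 18.4% of all genes), 0 were higher in both, and the median was -0.64. The group is small, and it was not tested as a set. Slc25a44 was at 187 and 214 CPM in control A and B and at 106 and 131 CPM in knockdown A and B. Both knockdown values were under both controls, with means of 201 ± 18.9 and 118 ± 17.8 CPM (SD, n = 2). The log2 difference was -0.76 (SE 0.33, limma adjusted p = 0.859). Slc25a12, the aspartate/glutamate carrier aralar of the malate-aspartate shuttle, was at 18.1 and 20.4 CPM in controls and at 7.42 and 9.46 CPM after knockdown. Its groups did not overlap, with a log2 difference of -1.11 (SE 0.49, limma adjusted p = 0.859).

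Slc25a13, or citrin, is the close relative of Slc25a12 and carries the same substrates. It was at 27.6 and 37.4 CPM in controls and at 38.5 and 16.5 CPM in knockdown A and B. Its knockdown libraries lay on either side of the controls, unlike those of Slc25a12, and whether the 2 genes differed in response was not tested. Slc25a38, which brings glycine into mitochondria for haem synthesis, was at 47.5 and 50.8 CPM in controls and at 34.8 and 26.1 CPM after knockdown. Slc25a20, the carnitine/acylcarnitine carrier that feeds fatty acid oxidation, was at 21.3 and 23.0 CPM in controls and at 13.7 and 14.9 CPM after knockdown. Both were lower in both knockdown libraries, by -0.69 (SE 0.40, limma adjusted p = 0.859) and -0.60 (SE 0.45, limma adjusted p = 0.878) on the log2 scale. Slc25a18, a glutamate carrier, had the largest negative difference of the family at a low level, with 3.24 and 3.49 CPM (81 and 87 reads) in controls and 0.609 and 1.21 CPM (17 and 22 reads) after knockdown (-1.21, SE 0.55, limma adjusted p = 0.859). Slc25a15 overlapped, at 112 and 86.7 CPM after knockdown.

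Of the 3 iron and glutathione carriers, 1 was lower without overlap (33.3%, against 18.4% of all genes). Slc25a28, or mitoferrin-2, which imports iron, was at 74.1 and 88.3 CPM in controls and at 52.8 and 41.9 CPM after knockdown. Its log2 difference was -0.77 (SE 0.37, limma adjusted p = 0.859), and the means were 81.2 ± 10.1 and 47.4 ± 7.71 CPM (SD, n = 2). Slc25a39, which imports glutathione, was at 17.9 and 24.4 CPM in controls and at 20.9 and 12.9 CPM after knockdown, so the groups overlapped. Its relative Slc25a40 overlapped too, at 3.60 and 7.95 CPM against 7.85 and 8.69 CPM.

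All 4 calcium-regulated ATP-Mg/phosphate carriers had differences below 0 (48.7% of all genes did), with a median of -0.39, and 2 were lower in both libraries (50.0%, against 18.4% of all genes). The direction was not stable in the others. Slc25a24 was at 1.48 and 1.16 CPM in controls, 2.37 CPM in knockdown A and 0 CPM in knockdown B. As each library was left out, its difference ran from -1.21 to 0.54, and that of Slc25a41 from -0.90 to 0.01. Slc25a25 was at 23.8 and 54.4 CPM in controls, which were themselves far apart, and at 19.8 and 22.9 CPM after knockdown. Its difference of -0.73 had an SE of 0.50 (limma adjusted p = 0.865), and it became -1.31 without control A and -0.15 without control B. Slc25a23 was lower in both by a small margin, at 5.68 and 5.10 CPM against 4.34 and 4.62 CPM.

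The adenine nucleotide and phosphate carriers were divided. Slc25a3 was at 125 and 122 CPM in controls and at 100 and 109 CPM after knockdown, a log2 difference of -0.24 (SE 0.33, limma adjusted p = 0.947). Both knockdown libraries were lower, by less than the error of the difference. Slc25a4, the heart and muscle ADP/ATP exchanger ANT1, was at 8.24 and 5.06 CPM in controls and at 12.6 and 8.53 CPM after knockdown, with a difference of 0.60 (SE 0.55, limma adjusted p = 0.898) that ran from 0.30 to 0.91 as each library was left out. Slc25a5 was at 178 and 142 CPM in controls, at 317 CPM in knockdown A and at 106 CPM in knockdown B. The knockdown values bracketed both controls, and the mean after knockdown was 211 ± 149 CPM (SD, n = 2). Slc25a5 has processed pseudogene copies, so its count depends on how shared reads were assigned.

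Among 9 carriers of other nucleotides and cofactors, 1 was lower and 1 higher without overlap (11.1% each, against 18.4% and 18.1% of all genes). Slc25a26, which brings S-adenosylmethionine into mitochondria, was at 2.76 and 4.82 CPM in controls and at 10.4 and 5.56 CPM after knockdown, a difference of 0.88 (SE 0.59, limma adjusted p = 0.859) that ran from 0.49 to 1.28 as each library was left out. Its span overlaps Lrig1, and overlap of exons was not checked. The strand setting of the counting is not given in the sources used here, and whether reads of such neighbours entered the count was not tested. The same holds for Slc25a3, Slc25a11, Slc25a16, Slc25a21, Slc25a25 and Slc25a53. Slc25a51, the mitochondrial NAD carrier, was at 84.5 and 67.0 CPM in controls and at 68.3 and 34.6 CPM after knockdown, with overlap and a difference of -0.62 that ran from -1.10 to -0.14 as each library was left out. Slc25a32, the folate and FAD carrier, stayed close together in all 4 libraries, at 52.2, 41.2, 50.7 and 47.9 CPM in control A, control B, knockdown A and knockdown B.

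The 4 di- and tricarboxylate carriers all overlapped. Slc25a1, which exports citrate for lipid synthesis, was at 4.84 and 4.74 CPM in controls, at 9.25 CPM in knockdown A (258 reads) and at 0.990 CPM in knockdown B (18 reads). Slc25a11, the oxoglutarate/malate carrier, was at 16.2 and 9.16 CPM in controls and at 20.0 and 8.91 CPM in knockdown A and B. In both genes knockdown A lay above and knockdown B below the controls.

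The uncoupling-protein relatives, the outer membrane member and the members without an assigned substrate held no call. Slc25a14 was at 89.1 and 93.7 CPM in controls and at 88.1 and 58.7 CPM after knockdown, so knockdown A was under the controls by a small margin, and the difference of -0.34 became -0.05 without knockdown B. Slc25a30, from the same group, overlapped at 5.88 and 12.6 CPM against 10.1 and 8.86 CPM. Slc25a53 had the largest positive difference of the 38 members, 1.47 (SE 0.74, limma adjusted p = 0.859), with 3.24 and 0.0803 CPM in controls (81 and 2 reads) and 5.81 and 4.18 CPM after knockdown. Its controls were further apart than its knockdown libraries, and the difference ran from 0.49 to 2.46 as each library was left out. Slc25a46 was at 2.44 and 3.78 CPM in controls, at 3.15 CPM in knockdown A and at 9.63 CPM in knockdown B. Slc25a27 and Slc25a47 stayed under the filter.

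The split seen for Slc25a1 and Slc25a11 recurred in other members, and it was also frequent over all genes, 62.5% of which were higher in knockdown A than in knockdown B. For 10 of 38 members (26.3%, against 19.1% of all genes), knockdown A was above both controls and knockdown B below both. Beside Slc25a1, Slc25a5, Slc25a11, Slc25a13 and Slc25a15 they included Slc25a17, Slc25a24, Slc25a35 and Slc25a48. Slc25a17, the peroxisomal cofactor carrier, was at 57.1 and 57.6 CPM in controls, 79.96 CPM in knockdown A and 33.5 CPM in knockdown B. Slc25a48 was at 28.5 and 31.7 CPM in controls, 45.6 CPM in knockdown A and 13.4 CPM in knockdown B. The reverse split was seen for the pyrimidine nucleotide carrier Slc25a36 alone among the 38 members (2.6%, against 8.2% of all genes). The median distance between the knockdown libraries was 0.55 on the log2 scale for members and 0.69 for all genes, and between the controls it was 0.31 and 0.34.

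**Figure D2:**
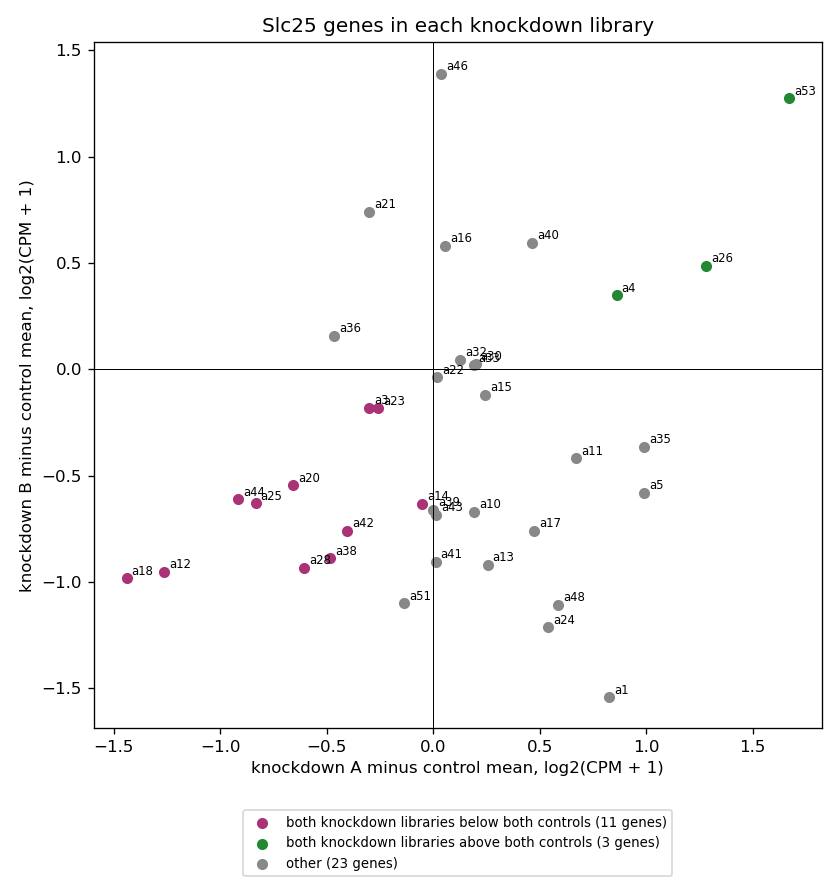
Difference of each knockdown library from the mean of the 2 controls, in log2(CPM + 1), with knockdown A on the x axis and knockdown B on the y axis; 1 point is a gene, and 37 of the 38 tested genes are shown. The 11 purple points are below both controls in both libraries, the 3 green points above, and a further set lies at the lower right, where knockdown A is high and knockdown B low.

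Promoters of 4 members that lay below both controls are shown, to let the reader compare the start regions of genes that moved to the same side without a call. Each holds the 250 bases before and 50 bases after the annotated start, from RefSeq on build GRCm38.p6, 5′ to 3′ on the gene's strand, and capitals mark CCGGAAG, a core of ETS family sites such as those of GABP. Slc25a12 is from chr2:71367706-71368005 (minus strand), Slc25a28 from chr19:43674832-43675131 (minus strand), Slc25a38 from chr9:120110132-120110431 (plus strand) and Slc25a20 from chr9:108661886-108662185 (plus strand).
Slc25a12: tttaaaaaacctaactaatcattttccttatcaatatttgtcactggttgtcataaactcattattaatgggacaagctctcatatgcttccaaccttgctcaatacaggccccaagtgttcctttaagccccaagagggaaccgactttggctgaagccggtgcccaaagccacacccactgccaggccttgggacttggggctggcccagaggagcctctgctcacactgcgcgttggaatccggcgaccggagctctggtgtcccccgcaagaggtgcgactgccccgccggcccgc
Slc25a28: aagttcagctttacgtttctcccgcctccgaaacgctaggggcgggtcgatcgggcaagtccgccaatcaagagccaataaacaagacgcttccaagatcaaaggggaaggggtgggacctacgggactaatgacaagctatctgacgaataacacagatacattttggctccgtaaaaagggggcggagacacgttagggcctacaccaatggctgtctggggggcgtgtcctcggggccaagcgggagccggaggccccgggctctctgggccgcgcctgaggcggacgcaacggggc
Slc25a38: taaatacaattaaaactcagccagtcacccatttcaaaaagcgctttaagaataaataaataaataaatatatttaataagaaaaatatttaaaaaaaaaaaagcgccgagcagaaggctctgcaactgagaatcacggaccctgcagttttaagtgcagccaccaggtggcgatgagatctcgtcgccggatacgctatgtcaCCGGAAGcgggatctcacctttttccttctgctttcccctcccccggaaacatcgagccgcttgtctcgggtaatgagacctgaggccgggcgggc
Slc25a20: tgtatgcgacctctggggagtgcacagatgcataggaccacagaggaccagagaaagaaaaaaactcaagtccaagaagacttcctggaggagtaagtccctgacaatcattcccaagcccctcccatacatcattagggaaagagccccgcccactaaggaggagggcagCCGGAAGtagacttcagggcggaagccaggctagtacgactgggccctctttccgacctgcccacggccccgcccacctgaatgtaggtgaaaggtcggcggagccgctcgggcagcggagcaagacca

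Promoters were found for 33 of the 42 members. Their median GC content was 60.7% and their median number of CpG pairs 17, against 52.7% and 7 over the 27025 genes of the table. On either strand, CCGGAAG was in the promoters of 6 members (18.2%), namely Slc25a3, Slc25a4, Slc25a17, Slc25a20, Slc25a25 and Slc25a38, and of 9.93% of all genes. The 8-base YY1 core ATGGCGGC was in 1 member (Slc25a42, 3.0%, against 2.60% of genes), the NRF1 core GCGCATGCG in 0 (against 1.95%), and TATAAA in 2 (6.1%, against 15.67%). No member's promoters held more than 1 of these 4 strings. A match is a string of letters and not a measured site.

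Transcripts of the surrounding transport machinery showed no call either. Of 36 listed genes for carrier import, outer membrane channels, carriers under other symbols and other inner membrane transporters, 33 were tested, 0 were called in limma (0 with an unadjusted p under 0.05), 7 were higher (21.2%, against 18.1% of all genes) and 6 lower (18.2%, against 18.4%) in both knockdown libraries, and the median was 0.04. These shares were near the background, and the genes given next are the 2 with the largest difference in each direction among those at a mean of at least 10 CPM. Timm22, the pore that inserts the carriers, was at 22.3 and 14.2 CPM in controls and at 8.92 and 8.91 CPM after knockdown (difference -0.92, SE 0.50, limma adjusted p = 0.859). Timm9, a small Tim chaperone, was at 17.3 and 12.8 CPM in controls and at 38.3 and 26.03 CPM after knockdown (difference 1.03, SE 0.46, limma adjusted p = 0.859). The inner membrane protein Letm1 was at 77.5 and 72.2 CPM against 36.3 and 50.3 CPM, and the calcium uniporter Mcu at 35.4 and 43.0 CPM against 67.2 and 64.4 CPM.

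The second comparison asked which carrier transcripts were recovered with the tagged Eif1ad3 above the IgG background. Of the 32 members tested, 8 were higher with anti-His beads and 0 lower in limma on log2(CPM + 1). They were the citrate carrier Slc25a1, the cofactor and nucleotide carriers Slc25a32, Slc25a33 and Slc25a42, the aspartate/glutamate carrier Slc25a13, the ATP-Mg/phosphate carrier Slc25a41, and Slc25a35 and Slc25a53, which were not assigned a substrate here. The 8 members made 25.0% of those tested, against 36.6% of all 11232 genes called in either direction, 35.7% called higher and 0.917% called lower, so the family's share was not above the background. The median difference was 1.63 for members and 2.01 for all genes. The calls depend on the method. With edgeR 0 members were called (11 at an unadjusted p under 0.05) and 0 of all genes (4592 unadjusted). With quantile normalization 0 members were called (5 unadjusted) and 0 of all genes (2339 unadjusted). By contrast, DESeq2 called 14 of 32 (10 higher and 4 lower), and 49.1% of all genes. Rescaling each library to its median turned Slc25a13, Slc25a33, Slc25a41, Slc25a42 and Slc25a53 to differences below 0 while shifting the all-gene median to -1.92, and quantile normalization turned Slc25a13 and Slc25a41. With median rescaling Slc25a41 passed as lower (limma adjusted p = 0.015). Median rescaling subtracts 1 value from each library, so it shifted the difference of every tested gene by the same amount.

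**Figure D3:**
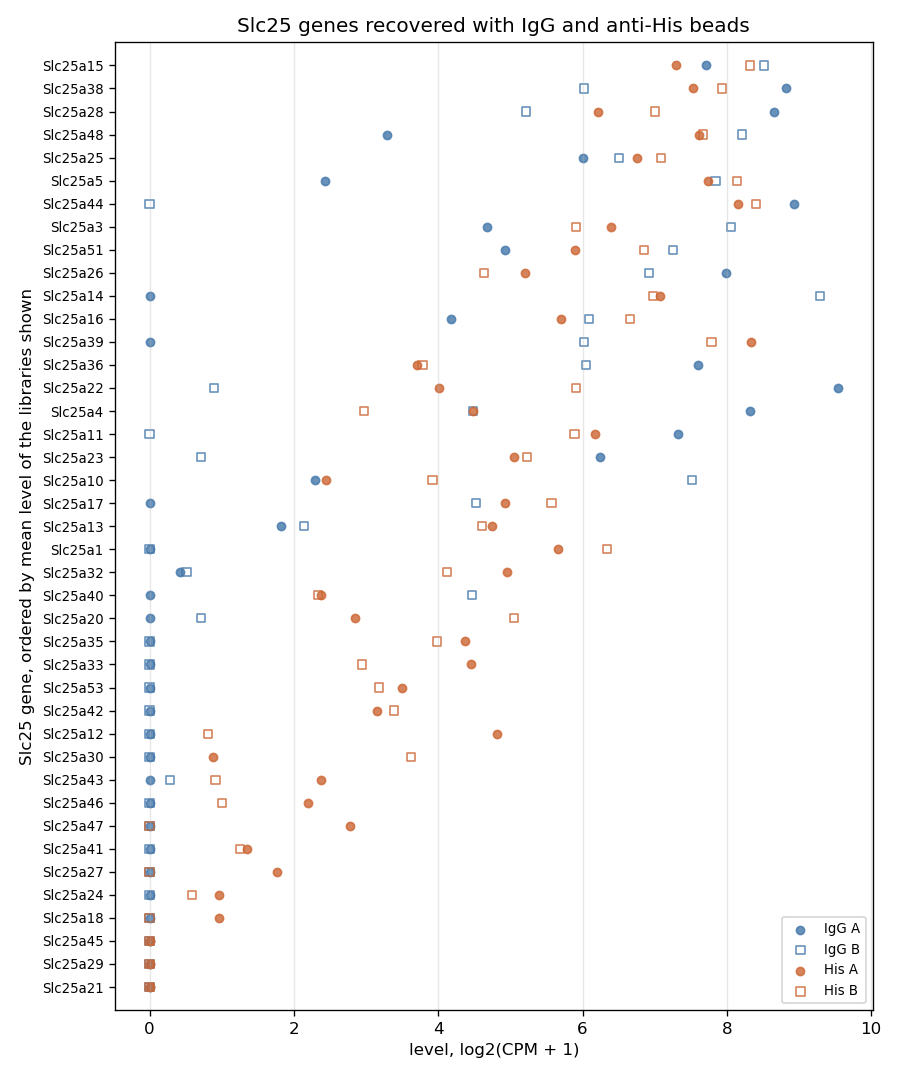
Levels of 41 of the 42 listed Slc25 genes in the 2 IgG and 2 His libraries, as log2(CPM + 1); 1 row is a gene and 1 point a library, and rows are ordered by mean level for display only. Slc25a1, Slc25a35, Slc25a33, Slc25a53 and Slc25a42 have both IgG points at 0, and Slc25a44, Slc25a22 and Slc25a14 have 1 IgG point at or near 0 and the other at the far right.

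Of the 32 tested, 9 were under 1 CPM in both IgG libraries (28.1%, against 38.2% of all genes). These 9 passed the filter only through the His libraries, which fixed them as higher without overlap before any test, and 7 of the 8 called members, all but Slc25a13, were among them. The values below therefore describe their recovery, and the count of calls supports nothing further. Within the 9, 7 had 0 reads in both IgG libraries (21.9% of the members tested, against 28.2% of all genes), 6 of them called and Slc25a46 not. Slc25a1 was at 0 CPM in both IgG libraries and at 49.7 and 80.2 CPM in His A and B (416 and 635 reads). Set against the mean of the 3-read floors in IgG, the His mean was at least 113-fold higher. From His A alone the bound was 86.7-fold. Such bounds cover counting error only, and Slc25a44, for example, had 2879 reads in IgG A and 0 in IgG B. For Slc25a1 limma gave a log2 difference of 6.00 (SE 0.57, adjusted p = 0.00997). After knockdown the same gene was at 9.25 and 0.990 CPM in libraries A and B, as given above.

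Slc25a35 was at 0 in both IgG libraries and at 19.6 and 14.8 CPM in His A and B, at least 29.97-fold higher (limma adjusted p = 0.00997). Slc25a33, a pyrimidine nucleotide carrier, was at 0 and 0 CPM against 20.9 and 6.69 CPM, at least 24.1-fold higher (limma adjusted p = 0.0253). Its His libraries differed from each other more than those of Slc25a35, and the bound was 11.7-fold from His B alone. Slc25a53, at 10.3 and 8.08 CPM, and the coenzyme A carrier Slc25a42, at 7.89 and 9.47 CPM, were at least 16.0-fold and 15.1-fold higher than an IgG level of 0 reads (limma adjusted p = 0.00997 for each). Slc25a41 rested on 13 and 11 reads in His A and B against 0 and 0, at least 2.57-fold higher (limma adjusted p = 0.0108). These bounds use the His mean. From the lower His library alone they were 25.8-fold for Slc25a35, 14.1-fold for Slc25a53, 13.75-fold for Slc25a42 and 2.42-fold for Slc25a41.

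Both other called members had reads in IgG. Slc25a32 had 0.338 and 0.428 CPM in IgG A and B (2 reads in each), against 29.9 and 16.4 CPM in His A and B, a log2 difference of 4.07 (SE 0.51, limma adjusted p = 0.0128). Slc25a13 had 2.53 and 3.42 CPM in IgG, against 25.7 and 23.4 CPM in His, with means of 2.98 ± 0.628 and 24.5 ± 1.65 CPM (SD, n = 2) and a difference of 2.69 (SE 0.60, limma adjusted p = 0.0442). Beside edgeR and the rescalings, Slc25a13 lost its call when either His library was left out (adjusted p = 0.125 and 0.127), with a pseudocount of 0.1 (0.128), without the filter (0.0789), with a 5 CPM mean required (0.0575) and with the replicate letter as a block (0.210), all in limma. Slc25a41 lost its call when either IgG library was left out and without the mean-variance trend (limma adjusted p = 0.0765), and Slc25a33 with a pseudocount of 5 (0.0732). Slc25a12, the relative of Slc25a13, was at 0 in both IgG libraries, at 27.3 CPM in His A (228 reads) and at 0.758 CPM in His B (6 reads), and did not enter the test because 1 library alone reached 1 CPM.

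His exceeded IgG without overlap in 13 of 32 members (40.6%, against 54.1% of all genes), a count that includes the 9 whose direction the filter fixed. The other 4 were Slc25a13, Slc25a17, Slc25a25 and Slc25a39. Of the 13, 5 were not called. Slc25a39 had 0 and 64.1 CPM in IgG A and B, against 322 and 220 CPM in His A and B, with a difference of 5.05 whose SE was 2.46 (limma adjusted p = 0.235). The difference was 2.03 without IgG A and 8.06 without IgG B, and it passed in both. Slc25a17 was at 0 and 22.0 CPM against 29.4 and 46.5 CPM (limma adjusted p = 0.350), and Slc25a25 at 63.5 and 89.8 CPM against 107 and 135 CPM (limma adjusted p = 0.586). Slc25a20 had 0 and 0.641 CPM in IgG (3 reads in IgG B), against 6.22 and 32.1 CPM in His (difference 3.59, SE 0.95, limma adjusted p = 0.0663). It passed in DESeq2 (adjusted p = 0.00132), with the replicate letter as a block and with either IgG library left out. The remaining one, Slc25a46, an outer membrane member with a part in mitochondrial shape, was at 0 in both IgG libraries and at 3.59 and 1.01 CPM in His (difference 1.60, limma adjusted p = 0.0892), and passed in DESeq2 (adjusted p = 0.011).

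Below IgG in both His libraries were 3 of 32 members (9.4%, against 9.06% of all genes), with Slc25a26 and Slc25a36 among them. Slc25a26 was at 252 and 120 CPM in IgG against 36.0 and 23.7 CPM in His (-2.54, SE 0.87, limma adjusted p = 0.117). Slc25a36 was at 193 and 65.2 CPM against 12.1 and 12.8 CPM (-3.08, SE 1.02, limma adjusted p = 0.109). Neither passed in limma on log2(CPM + 1) with all 4 libraries, and both passed as lower in DESeq2, in limma after median rescaling (adjusted p = 0.0316 and 0.0353) and in limma when either IgG library was left out.

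The other 16 members overlapped between the groups, and the IgG libraries often disagreed. In 8 of the 32 tested members (25.0%, against 22.2% of all genes) 1 IgG library held at least 10 CPM and the other at most 4 reads, while this was seen for 0 members between the His libraries (0.3% of all genes). IgG A alone held Slc25a11, Slc25a22, Slc25a23 and Slc25a44, and IgG B alone held Slc25a14, Slc25a17, Slc25a39 and Slc25a40. Slc25a44 had 2879 reads in IgG A and 0 in IgG B (486 and 0 CPM), beside 284 and 338 CPM in His A and B. Slc25a14 had 0 reads in IgG A and 2931 in IgG B (626 CPM), beside 133 and 125 CPM in His. Slc25a22, a glutamate carrier, was at 744 CPM in IgG A and 0.855 CPM in IgG B (4 reads). The His values of Slc25a44 and Slc25a14 were close to each other where the IgG values were at opposite ends.

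Not tested were 10 members, because fewer than 2 of the 4 libraries reached 1 CPM. Slc25a21, Slc25a29 and Slc25a45 had 0 reads in all 4 libraries, and of the other 7, Slc25a43 alone had an IgG read (1 in IgG B). Slc25a30, for example, had 0 reads in both IgG libraries, 7 reads in His A and 90 in His B.

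The adenine nucleotide and phosphate carriers Slc25a3, Slc25a4 and Slc25a5 were among the members that overlapped. Slc25a5 had 4.39 and 228 CPM in IgG, against 213 and 281 CPM in His, Slc25a3 at 24.6 and 266 CPM against 82.7 and 59.2 CPM, and Slc25a4 at 317 and 21.4 CPM against 21.4 and 6.82 CPM. For each, 1 IgG library was more than 10 times the other, and the limma adjusted p-values were 0.455, 0.941 and 0.379. Slc25a4 passed as lower in DESeq2 (adjusted p = 0.0223) and in limma without IgG B. Slc25a28 was at 402 and 36.1 CPM in IgG against 72.9 and 127 CPM in His, and Slc25a38 at 449 and 64.1 CPM against 184 and 243 CPM. Slc25a11 was at 159 and 0 CPM against 71.4 and 58.2 CPM, and Slc25a51 at 29.5 and 152 CPM against 58.7 and 115 CPM. In limma, Slc25a3, Slc25a11, Slc25a28 and Slc25a38 passed in opposite directions depending on which IgG library was left out.

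The IgG libraries were also further apart than the His libraries in Slc25a48 (8.78 and 295 CPM in IgG, 195 and 202 CPM in His), in the dicarboxylate carrier Slc25a10 (3.88 and 181 CPM against 4.42 and 14.1 CPM), in Slc25a40 (0 and 21.2 CPM against 4.18 and 4.04 CPM) and in Slc25a23 (74.6 and 0.641 CPM against 32.2 and 36.5 CPM). Slc25a15 was an exception, at 208 and 365 CPM in IgG and 156 and 319 CPM in His.

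Across the tested members the median distance between replicate libraries was 2.12 on the log2 scale in IgG (0.97 for all genes) and 0.44 in His (0.50 for all genes). The share at least 2-fold apart in IgG was near the background, at 62.5% of members and 59.9% of all genes. Fewer members (28.1%) than genes in all (38.2%) were under 1 CPM in both IgG libraries. Of the 42 listed members, 22 and 18 had 0 reads in IgG A and B, and 3 and 6 in His A and B. The family's summed level was nonetheless higher in IgG, at 3812 and 3021 CPM, than in His, at 2377 and 2828 CPM. A single gene made up 19.5% of the sum in IgG A (Slc25a22) and 20.7% in IgG B (Slc25a14). At least 10 CPM in both libraries was reached by 23 of 32 members in His (71.9%, against 58.2% of all genes) and by 11 in IgG (34.4%, against 20.1%). The IgG libraries were also the shallower ones, with fewer genes at 1 CPM (5148 and 5564, against 12246 and 12270 in His). CPM are shares of a library's total, so a sum also depends on how many other genes were detected. The part of depth or of the number of detected genes in these differences was not tested. Leaving out IgG A raised the number of called members from 8 to 22 of 32 (64.4% of all genes were called), and leaving out IgG B raised it to 28 (65.0% of all genes), the single remaining IgG library then being assumed to vary like the His libraries.

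**Figure D4:**
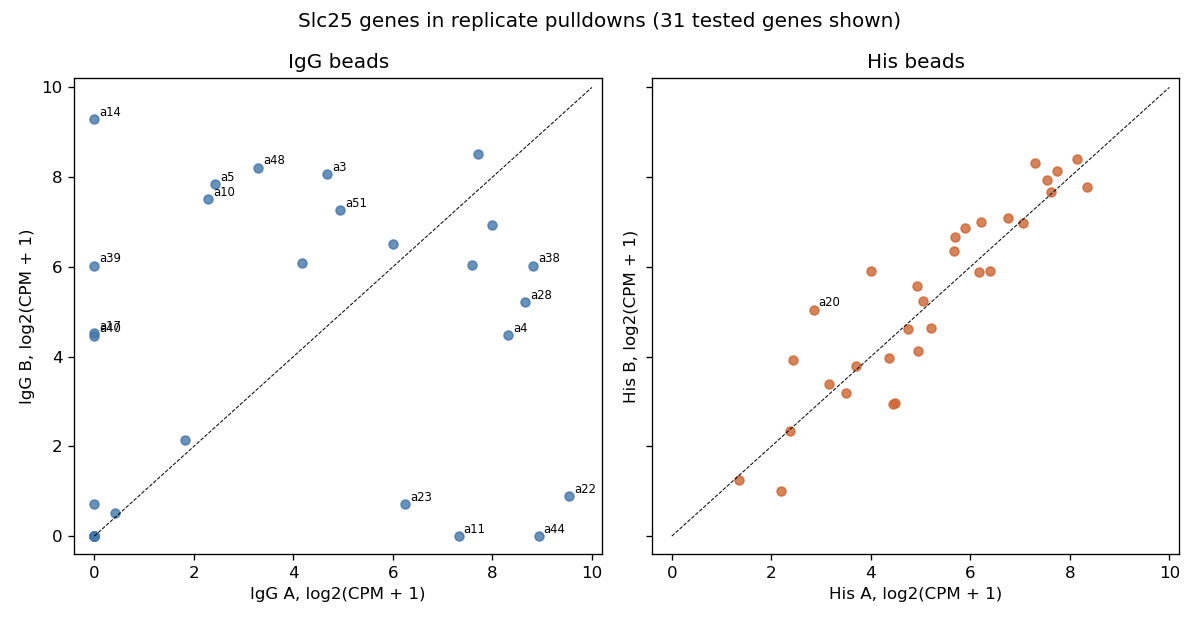
Level of 31 of the 32 tested Slc25 genes in replicate A (x axis) against replicate B (y axis), as log2(CPM + 1), for the 2 IgG libraries and the 2 His libraries. Of the 32 tested genes, 7 were at least 2-fold apart between the His libraries (21.9%, against 29.5% of all genes). Between the IgG libraries 20 were (62.5%, against 59.9% of all genes). Along or near an axis lie 8 IgG points (25.0%, against 22.2% of all genes), with at least 10 CPM in 1 library and at most 4 reads in the other.

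Among the surrounding transport genes, 29 of 38 listed were tested and 10 were called, 9 higher and 1 lower with anti-His beads (34.5%, against 36.6% of all genes, a share near the background). The higher ones were the outer membrane channels Vdac2 and Vdac3, the import pore Tomm40, the small Tim chaperones Timm10 and Timm8a1, the sideroflexins Sfxn4 and Sfxn5, the uniporter regulator Micu2, and Mtch2, a carrier relative in the outer membrane. Of these 9, Vdac2, Tomm40, Timm10, Timm8a1, Sfxn4 and Sfxn5 were under 1 CPM in both IgG libraries, so they too passed the filter only through the His libraries, which fixed their direction. Vdac3 had 1.01 and 1.28 CPM in IgG, against 265 and 227 CPM in His (log2 difference 6.84, SE 0.80, limma adjusted p = 0.0116). Mtch1, the paralog of Mtch2, went the other way, at 243 and 254 CPM in IgG against 14.6 and 27.7 CPM in His (-3.56, SE 0.81, limma adjusted p = 0.0463). Mtch2 was at 0 and 1.71 CPM in IgG against 29.5 and 13.5 CPM in His (3.68, SE 0.80, limma adjusted p = 0.0429).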

How the data were processed

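RNA-seq of mouse 2-cell embryos was taken as deposited in 2 tables of CPM per gene, scaled by the authors to each library's total. Trim Galore 0.6.7, FastQC, HISAT2 2.2.1, featureCounts 2.0.1, edgeR and build GRCm39 are named in the submitters' processing notes, with no settings. The labels' protocols name Smart-seq2 amplification followed by Nextera XT, which carries no molecular identifiers, so floors cover counting error only. In each library 100% of the CPM values were whole multiples of 1 read (tolerance 0.1 read), which gave reads and totals, and 3 reads were used as the floor.

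The tables were normalized separately and tested separately. Of 12 labelled samples, 8 were used. Another 4 value columns could not be tied by name to the input or the total RNA samples, so they were not used here and the comparisons with input and total RNA were not run. A gene was tested if 2 or more libraries of the comparison reached 1 CPM. The test was limma 3.58.1 (R 4.3.3; lmFit, eBayes with trend, two-sided) applied to log2(CPM + 1), Benjamini-Hochberg adjusted over all genes tested, at 0.05. Fold changes on this scale understate those of low genes. Alternatives were pseudocounts 0.1 and 5, no filter, a mean of at least 5 CPM, quantile normalization, median rescaling, the replicate letter as a block, eBayes without trend, edgeR 4.0.16 and DESeq2 1.42.0 on recovered reads, and leaving out each library. The scripts were tested on simulated data, and at the estimated spread of these libraries limma and edgeR called few or no changed genes.

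Named members were 15 anchors (Slc25a37 was not analysed here), those called, and up to 6 per direction without overlap at a mean of at least 10 CPM; further members were picked with their values in view. The members, lists and roles were chosen with earlier results of these data known. A member that is counted in the totals is not reported here by name and is left out of the figures.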

Additional observations from a re-analysis of the deposited data

How the results depend on the processing

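With 2 libraries a group, calls are limited by the spread between libraries, and 3 reads of the smallest IgG library are 0.641 CPM. The planned comparisons with input and total RNA were not run. In the knockdown comparison the count of called members was 0 under all 14 alternatives, the replicate block included (0). Over all genes the block called 2 and DESeq2 15, against 0, and leaving out knockdown A or B called 1250 or 76. The members' median ran from -0.595 to 0.045 when a library was left out. Slc25a1 moved to 0.019 in edgeR and 0.00 in DESeq2, and over the left-out libraries it ran from -1.54 to 0.82, Slc25a5 from -0.58 to 0.99, Slc25a11 from -0.42 to 0.67, Slc25a13 from -0.92 to 0.26 and Slc25a32 from -0.08 to 0.25.

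In His against IgG, 8 called members became 4 when a 5 CPM mean was required, 5 under median rescaling (all lower), 0 with quantile normalization, 0 in edgeR, 14 in DESeq2 (10 higher) and 8 to 28 when a library was left out, against 4111 genes in all that became 2356, 2213, 0, 0, 5513 and, without IgG A or B, 7229 or 7301. The median of 1.63 became 2.57 (pseudocount 0.1), -2.29 (median rescaling), 0.30 (quantile), 0.29 (edgeR) and 0.041 (DESeq2). Median rescaling gave -1.12 for Slc25a5, -1.56 for Slc25a11, -1.24 for Slc25a13, -0.34 for Slc25a20, -3.61 for Slc25a38, -3.65 for Slc25a51, -0.23 for Slc25a33, -0.59 for Slc25a53, -0.66 for Slc25a42, -2.62 for Slc25a41, -0.94 for Slc25a17 and -3.27 for Slc25a25. Quantile normalization gave -0.56 for Slc25a13 and -0.70 for Slc25a41. Slc25a11, Slc25a38 and Slc25a51 were at -0.54, -0.47 and -0.029 in edgeR and at -0.83, -0.76 and -0.25 in DESeq2. Over the left-out libraries, Slc25a28 ran from -2.05 to 1.39, Slc25a3 from -1.91 to 1.47, Slc25a51 from -0.88 to 1.45, Slc25a11 from -1.29 to 6.03 and Slc25a38 from -1.08 to 1.71. The replicate block kept the count at 8, with Slc25a13 losing its call (adjusted p = 0.210) and Slc25a20 gaining one. Same-letter libraries deviated together with r = 0.15 in the knockdown table and -0.01 in the other, and 2 pairs share only a letter. Median rescaling shifted the difference of every gene by the same amount, so its sign changes are not particular to these members. Why the other values moved was not tested.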
